A study of Mus musculus with 6 samples.

Results

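The BCL2 family genes described here are 10 of the 51912 Ensembl mouse gene IDs in the count table, taken by gene symbol: 6 BH3-only genes (Bcl2l11, Bmf, Bbc3, Pmaip1, Bid and Bad), 1 effector (Bax) and 3 pro-survival genes (Bcl2, Bcl2l1 and Mcl1). Their RNA was measured in the mouse line EL4, which derives from a T-cell lymphoma. In 3 libraries the cells had received 10 µM RGFP966 for 24 h, a compound that blocks the deacetylase HDAC3, and in the other 3 they had received vehicle, which the labels do not name further. All cells are labelled wild type, and the labels do not tie the libraries to separate cultures, so p-values measure the spread between these libraries, which may be technical.

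BCL2 family proteins set the threshold for the mitochondrial route of apoptosis. The effectors BAX and BAK open the outer mitochondrial membrane and let cytochrome c out, the pro-survival proteins BCL2, BCL-xL (from Bcl2l1) and MCL1 hold them back, and BH3-only proteins bind the pro-survival proteins or activate the effectors. In T lymphocytes, BIM (from Bcl2l11) is known for removing self-reactive thymocytes and ending immune responses. Each gene's count pools its splice forms, so the long and short forms of Bcl2l1, Mcl1 and Bcl2l11, which differ in function, are not separated.

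With RGFP966, 2 of the 10 genes rose, both of them BH3-only: Bcl2l11, by 40.7%, and Bmf, by 50.8%. Of the 9 genes tested, 0 fell by edgeR's quasi-likelihood test with Benjamini-Hochberg adjustment at 0.05, with 1 lower at an unadjusted p under 0.05 (Bad), and 0 fell in the DESeq2 Wald test. The 3 pro-survival genes and Bax were not called, and the fold changes of Mcl1 and Bcl2 lay within 0.01 of 0 on the log2 scale. The share of tested members called, 22.2%, is near the share of all 13484 tested genes, 23.3% (11.4% higher and 11.9% lower), so the count is no result about the family. Levels are given in CPM, counts scaled to library size with TMM factors (trimmed means of M values).

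Promoters are shown for the pair that rose, Bcl2l11 and Bmf, beside Bbc3, which had the lowest fold change of the family, and Bcl2, the pro-survival partner of BIM whose level stayed close to that of vehicle. Each runs 5′ to 3′ on the gene's strand over 300 bases, 250 before and 50 after a RefSeq transcript start on GRCm38.p6, the assembly of mm10, and holds the start of the gene's principal GENCODE M21 transcript.
Bcl2l11: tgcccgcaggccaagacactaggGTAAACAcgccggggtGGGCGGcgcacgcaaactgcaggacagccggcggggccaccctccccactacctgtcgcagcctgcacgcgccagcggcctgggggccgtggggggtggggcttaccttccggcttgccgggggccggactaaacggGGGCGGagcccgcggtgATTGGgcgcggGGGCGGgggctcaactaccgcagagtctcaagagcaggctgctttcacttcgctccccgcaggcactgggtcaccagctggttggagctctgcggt
Bmf: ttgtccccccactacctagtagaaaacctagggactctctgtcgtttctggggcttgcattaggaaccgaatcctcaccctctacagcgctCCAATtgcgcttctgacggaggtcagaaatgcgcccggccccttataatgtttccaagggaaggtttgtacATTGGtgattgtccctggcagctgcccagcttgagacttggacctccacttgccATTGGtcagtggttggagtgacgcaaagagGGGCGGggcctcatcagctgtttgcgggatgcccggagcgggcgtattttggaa
Bbc3: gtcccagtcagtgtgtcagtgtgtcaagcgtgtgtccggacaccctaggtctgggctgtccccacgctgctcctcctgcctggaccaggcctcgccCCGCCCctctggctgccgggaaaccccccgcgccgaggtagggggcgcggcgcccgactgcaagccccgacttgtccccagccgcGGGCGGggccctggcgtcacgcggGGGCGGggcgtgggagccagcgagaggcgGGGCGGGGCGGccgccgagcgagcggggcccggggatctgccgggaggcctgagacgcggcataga
Bcl2: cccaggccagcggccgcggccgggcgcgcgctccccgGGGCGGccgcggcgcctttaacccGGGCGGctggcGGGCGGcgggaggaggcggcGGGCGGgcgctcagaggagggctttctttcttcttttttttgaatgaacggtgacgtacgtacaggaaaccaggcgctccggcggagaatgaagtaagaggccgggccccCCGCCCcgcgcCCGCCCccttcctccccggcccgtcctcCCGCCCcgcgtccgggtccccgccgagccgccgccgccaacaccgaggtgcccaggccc
The windows lie at chr2:128125788-128126087 (plus strand) for Bcl2l11, chr2:118549637-118549936 (minus strand) for Bmf, chr7:16309333-16309632 (plus strand) for Bbc3 and chr1:106714241-106714540 (minus strand) for Bcl2. Capitals mark exact matches on either strand. The letters searched were GTAAACA for the core bound by FOXO factors, GGGCGG for the GC box of SP1 and CCAAT for the box of that name. Also searched were CACGTG for the E-box, TGACGTCA for the cyclic AMP response element and TATAAA for the TATA box.

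The FOXO letters occurred 1 time in the Bcl2l11 window, at positions -227 to -221 from the start, and not in the other 3 windows. As background, 26994 mouse promoter windows of this length were used, the first listed for each gene and not chosen by principal start. Of these background windows 3.55% hold the FOXO letters. The CCAAT letters, held by 37.9% of the background windows, occurred 3 times in Bmf and 1 time in Bcl2l11. The GC box is held by 35.9% of the background windows. It occurred 3 times in Bcl2l11, 1 time in Bmf, 5 times in Bbc3, where the last 2 matches overlap by a base, and 7 times in Bcl2. No E-box, cyclic AMP response element or TATAAA match stood in the 4 windows shown, and 7.24%, 1.88% and 14.2% of the background windows hold them. CG dinucleotides numbered 27 in Bcl2l11, 13 in Bmf, 34 in Bbc3 and 44 in Bcl2, against a median of 7 over the background windows. A match is only a run of letters: binding was not measured, and of the other RefSeq starts of Bcl2l11, Bmf and Bbc3, not shown, 1 of Bbc3 has a FOXO match. Windows were matched by symbol for 9 of the 10 genes.

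Among the BH3-only genes, Bcl2l11 encodes BIM, which binds every main pro-survival protein and can activate BAX and BAK directly. It lies on chromosome 2 from 128126038 to 128162547 on the plus strand. Its level was 21.4, 22.1 and 19.3 CPM in RGFP966 libraries 1 to 3, against 14.7, 15.0 and 14.9 CPM in vehicle libraries 1 to 3. All 3 RGFP966 libraries lay above all 3 vehicle libraries, and the vehicle libraries were the tighter group, with means of 20.9 ± 1.43 CPM with RGFP966 and 14.9 ± 0.133 CPM with vehicle (SD, n = 3). The log2 fold change was 0.49 ± 0.10 (SE; edgeR adjusted p = 7.83e-05), with a 95% interval from 0.30 to 0.68. By size of p, Bcl2l11 ranked 661 of the 13484 genes tested, and by fold change from the highest it ranked 853. Its exons overlap no other annotated gene.

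Bmf encodes the BCL2-modifying factor, a BH3-only protein held by the cell's motor complexes until stress releases it, and lies on chromosome 2 from 118528757 to 118549687 on the minus strand. It measured 8.29, 8.13 and 8.97 CPM in RGFP966 libraries, against 6.12, 5.63 and 5.11 CPM in vehicle libraries. The groups did not overlap, though Bmf was the least abundant of the 9 genes tested, with 105 to 134 counts per RGFP966 library and 80 to 94 per vehicle library. Its log2 fold change of 0.59 ± 0.15 (SE; edgeR adjusted p = 0.00214) was the highest of the family, with an interval from 0.29 to 0.89 that covers the value of Bcl2l11.

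**Figure D1:**
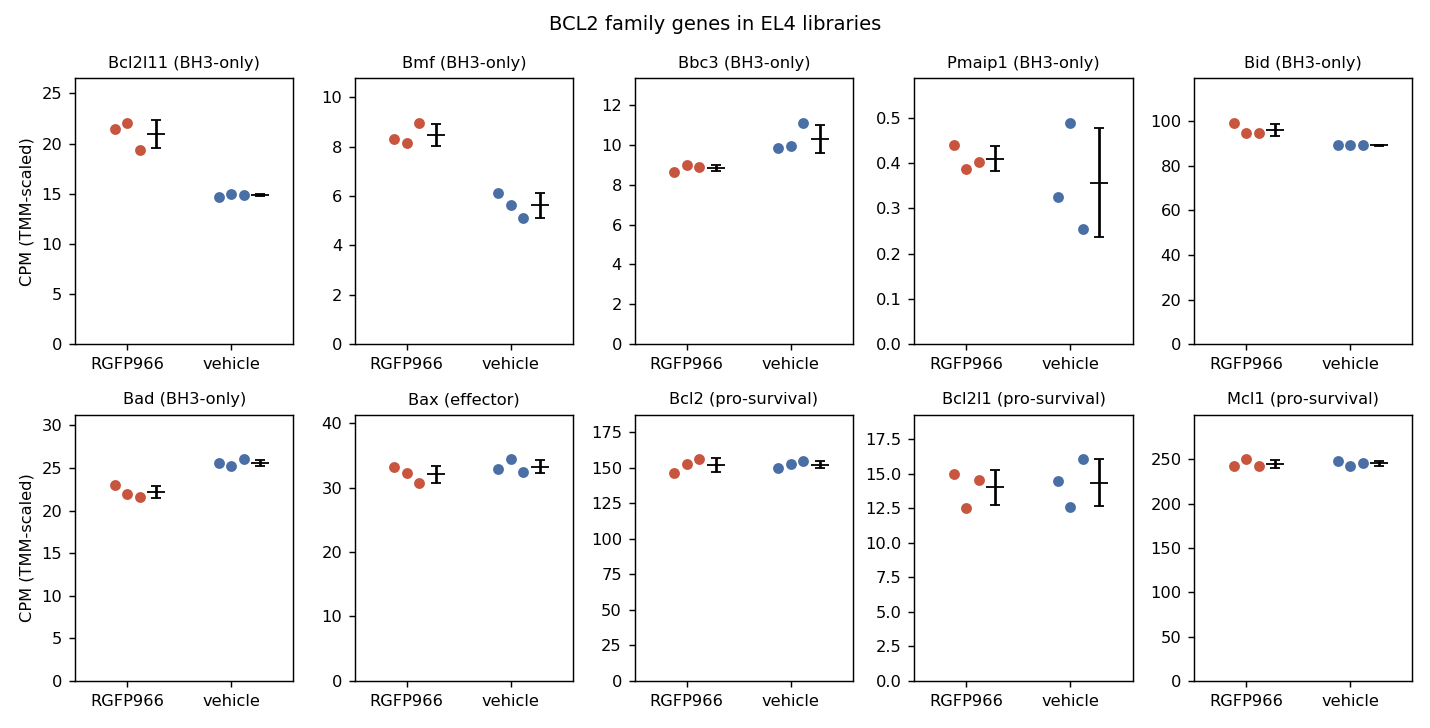
Level of each of the 10 BCL2 family genes in CPM (TMM-scaled), with RGFP966 libraries left of vehicle libraries in each panel. Points are libraries, and bars beside them show the mean and SD of 3 libraries. Bcl2l11, Bmf and Bid stand higher and Bad and Bbc3 lower in all 3 RGFP966 libraries, while Bcl2, Bcl2l1, Mcl1, Bax and Pmaip1 overlap between groups.

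The other BH3-only genes had smaller differences, in both directions, that were not called. Bid encodes a protein that caspase-8 cuts to link death receptors to mitochondria, and lies on chromosome 6 from 120891930 to 120916853 on the minus strand. It measured 99.2, 94.6 and 94.5 CPM with RGFP966, against 89.0, 89.0 and 89.4 CPM with vehicle, so the groups did not overlap. Its log2 fold change was 0.11 ± 0.05 (SE; edgeR adjusted p = 0.0890; interval 0.01 to 0.20). With upper-quartile scaling the adjusted p was 0.0327 and at a minimum mean of 5 CPM it was 0.0395, which would call it. Of its exons 17.7% overlap Bcl2l13 on the opposite strand, which measured 148 CPM with RGFP966 and 143 CPM with vehicle (log2 fold change 0.05; edgeR adjusted p = 0.472).

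Bad encodes a BH3-only protein that growth factor kinases silence by phosphorylation, and lies on chromosome 19 from 6941861 to 6951899 on the plus strand. It measured 23.0, 21.9 and 21.6 CPM in RGFP966 libraries, against 25.5, 25.3 and 26.0 CPM in vehicle libraries. All RGFP966 libraries lay below all vehicle libraries, but the adjusted p stayed above 0.05, with a log2 fold change of -0.21 ± 0.08 (SE; edgeR adjusted p = 0.0575; interval -0.37 to -0.04). Other genes overlap 20.5% of its exonic length, most of all Gpr137 on the opposite strand. Gpr137 measured 19.9 CPM with RGFP966 and 21.5 CPM with vehicle, a log2 fold change of -0.10 (edgeR adjusted p = 0.437).

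Bbc3 encodes PUMA, the BH3-only protein best known as a p53 target, and lies on chromosome 7 from 16308393 to 16318205 on the plus strand. It measured 8.66, 8.98 and 8.90 CPM with RGFP966, against 9.83, 9.97 and 11.1 CPM with vehicle. The groups did not overlap, but the log2 fold change of -0.22 ± 0.13 (SE; edgeR adjusted p = 0.222) has an interval from -0.47 to 0.03 that includes 0. The interval of Bbc3 lies wholly below those of Bcl2l11 and Bmf. Counts of Bcl2l11 were 2.37 ± 0.169 times those of Bbc3 within RGFP966 libraries and 1.45 ± 0.0929 times within vehicle libraries (SD, n = 3), a ratio that scaling between libraries does not move.

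Pmaip1, which encodes NOXA, a selective partner of MCL1, lies on chromosome 18 from 66458533 to 66465565 on the plus strand and was close to the detection limit. It had 6, 5 and 6 counts in RGFP966 libraries, against 5, 8 and 4 counts in vehicle libraries, and the filter on low counts removed it from testing. Summed over libraries, without TMM factors, this is 0.412 CPM with RGFP966 (exact Poisson 95% interval 0.240 to 0.660) and 0.357 CPM with vehicle (0.208 to 0.572). These intervals cover counting error only and overlap almost wholly. No difference was seen, and counts this low leave the intervals wide.

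Bax, the effector that moves from cytosol to mitochondria, lies on chromosome 7 from 45461697 to 45466898 on the minus strand. It measured 33.2, 32.3 and 30.6 CPM in RGFP966 libraries, against 33.0, 34.4 and 32.4 CPM in vehicle libraries, and the groups overlapped. The log2 fold change was -0.05 ± 0.07 (SE; edgeR adjusted p = 0.645), with an interval from -0.20 to 0.09. It took the other sign, 0.01, with offsets for GC content and length.

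Mcl1, whose short-lived protein guards lymphocytes and neutralises BIM, NOXA and BAK, lies on chromosome 3 from 95658788 to 95663176 on the plus strand. It measured 242.3, 249.9 and 242.4 CPM with RGFP966, against 248.3, 242.6 and 245.6 CPM with vehicle, so the groups overlapped. The log2 fold change was -0.00 ± 0.04 (SE; edgeR adjusted p = 0.960). Its 95% interval, -0.08 to 0.07, runs from -5.40% to 5.17%, given TMM scaling and the spread between these libraries.

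Bcl2, the founding pro-survival gene, lies on chromosome 1 from 106538178 to 106714274 on the minus strand. It measured 146, 153 and 156 CPM with RGFP966, against 149, 152 and 155 CPM with vehicle. The groups overlapped, with a log2 fold change of -0.00 ± 0.04 (SE; edgeR adjusted p = 0.962) and an interval from -0.09 to 0.08. The count ratio of Bcl2 to Mcl1 was 0.619 ± 0.0202 within RGFP966 libraries and 0.620 ± 0.0155 within vehicle libraries (SD, n = 3).

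Bcl2l1, which encodes BCL-xL and a short pro-death form, lies on chromosome 2 from 152780668 to 152831728 on the minus strand. It measured 15.0, 12.5 and 14.5 CPM in RGFP966 libraries, against 14.5, 12.6 and 16.0 CPM in vehicle libraries. The groups overlapped, and the wider spread left a log2 fold change of -0.03 ± 0.11 (SE; edgeR adjusted p = 0.875) with an interval from -0.25 to 0.19, which is wider than those of Mcl1 and Bcl2.

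**Figure D2:**
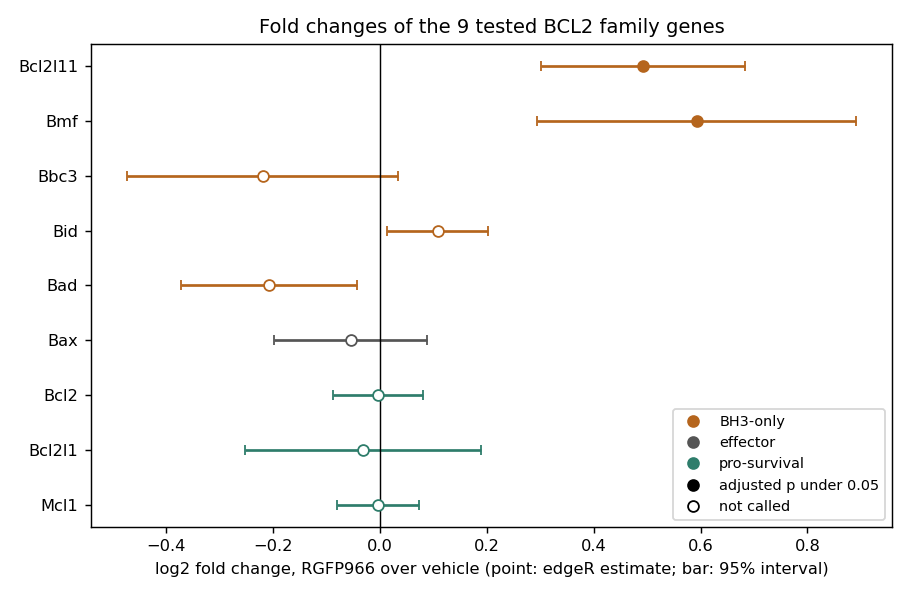
Log2 fold change (RGFP966 over vehicle) of the 9 tested BCL2 family genes, with points for the edgeR estimate, bars for the 95% interval, colour for class and filled points for an adjusted p under 0.05. Bcl2l11 and Bmf lie between 0.49 and 0.59, and the intervals of Bcl2, Bcl2l1, Mcl1, Bax and Bbc3 include 0.

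By class, the 5 tested BH3-only genes had a median log2 fold change of 0.11, with 2 higher and 0 lower by edgeR (1 lower at an unadjusted p under 0.05, and 0 by the DESeq2 Wald test). Of all tested genes 11.4% were called higher and 11.9% lower, and a count over 5 genes is no result about the class. The 3 pro-survival genes had a median of -0.00 and Bax stood at -0.05, beside a median of -0.00 over all genes tested. Groups of libraries did not overlap in 5 of the 9 tested members, all of them BH3-only, with Bcl2l11, Bmf and Bid higher and Bad and Bbc3 lower in RGFP966 libraries. Over all tested genes this held for 36.3%.

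Levels of different genes were compared as CPM per kilobase of annotated exonic length. Mcl1 stood highest, at 71.6 ± 1.28 with RGFP966 and 71.8 ± 0.832 with vehicle (SD, n = 3). Next came Bid at 27.1 and 25.1, Bax at 20.3 and 21.1, Bcl2 at 16.6 and 16.6, and Bad at 8.66 and 10.0 CPM per kb with RGFP966 and with vehicle. Bbc3 (4.17 with RGFP966 and 4.85 with vehicle), Bcl2l1 (3.06 and 3.13), Bcl2l11 (2.61 and 1.85), Bmf (1.61 and 1.07) and Pmaip1 (0.150 and 0.131) closed the order, which was the same in both groups. In RGFP966 libraries the ranges of Bcl2l1 and Bcl2l11 overlapped, at 2.74 to 3.26 and 2.41 to 2.75 CPM per kb, while in vehicle libraries no neighbours did. The genes that rose were thus among the least abundant of the family per length, in a comparison that takes all annotated exons as transcribed.

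**Figure D3:**
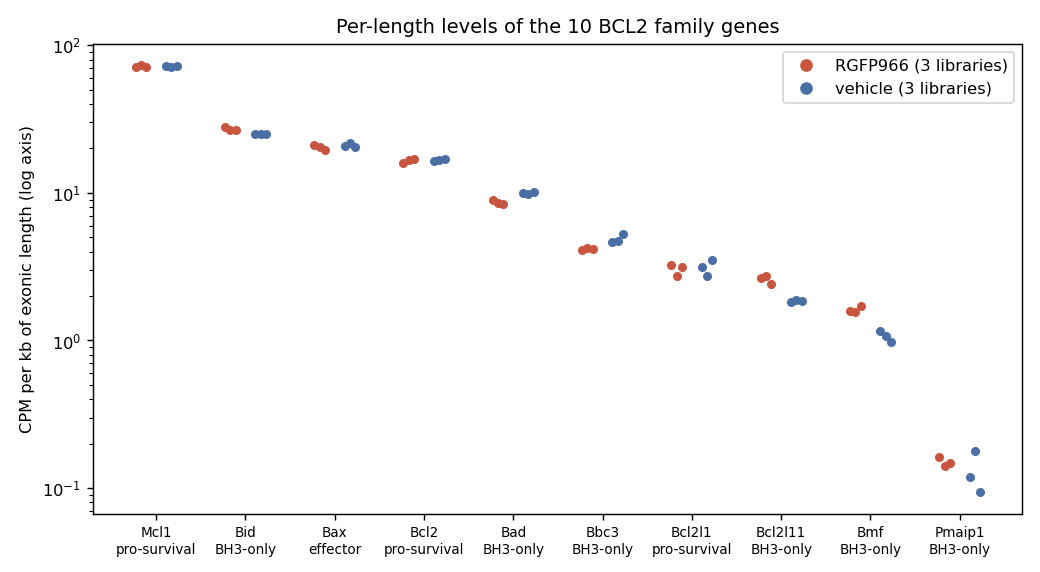
Level per length (CPM per kb of exonic length, log axis) of the 10 BCL2 family genes in each library, RGFP966 left of vehicle for each gene, ordered by the vehicle mean. Mcl1 is highest at 71.6 and 71.8 CPM per kb, Pmaip1 lowest at 0.150 and 0.131 CPM per kb, and points separate most clearly for Bcl2l11 and Bmf.

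Summed per length, Bcl2l11 and Bmf held 9.35%, 9.79% and 9.46% of the BH3-only total in RGFP966 libraries, against 7.01%, 6.87% and 6.50% in vehicle libraries. The BH3-only total itself was 45.4, 43.9 and 43.5 CPM per kb with RGFP966, against 42.8, 42.8 and 43.5 with vehicle. The groups all but met, at 43.512 in RGFP966 library 3 and 43.505 in vehicle library 3. Bid made up 61.1% ± 0.405 of the BH3-only total with RGFP966 and 58.4% ± 0.416 with vehicle (SD, n = 3). The pro-survival total was 91.3 ± 1.21 CPM per kb with RGFP966 and 91.6 ± 1.05 with vehicle. Per length, BH3-only over pro-survival RNA was 0.485 ± 0.0161 with RGFP966 and 0.470 ± 0.00456 with vehicle, at 0.504, 0.474 and 0.478 in RGFP966 libraries against 0.465, 0.473 and 0.472 in vehicle libraries. By this ratio the lowest RGFP966 library, at 0.4743, lay just above the highest vehicle library, at 0.4732. The ratio of Bcl2l11 to Mcl1 counts was 0.0884, 0.0883 and 0.0798 in RGFP966 libraries, against 0.0593, 0.0617 and 0.0606 in vehicle libraries, with no overlap. These sums were formed after the members' values were known and carry no test.

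Of the other BCL2 family genes, 16 were listed and 8 tested, of which 0 rose by edgeR (0 at an unadjusted p under 0.05, and 0 by DESeq2) and 1 fell. That is 12.5% called, against 23.3% of all genes tested. Bak1, the effector paired with Bax, measured 60.1, 56.7 and 55.2 CPM with RGFP966, against 64.4, 64.0 and 62.0 CPM with vehicle. Its log2 fold change of -0.15 ± 0.06 (SE; edgeR adjusted p = 0.0458) kept its call in 3 of 17 alternative settings, with adjusted p up to 0.234. Other genes overlap 25.5% of its exonic length, most of all Ggnbp1 on the opposite strand. Ggnbp1 measured 2.60 CPM with RGFP966 and 1.98 CPM with vehicle (edgeR adjusted p = 0.295). Bcl2l2, a further pro-survival gene (BCL-W), measured 36.5, 33.0 and 37.0 CPM with RGFP966, against 38.9, 38.9 and 35.8 CPM with vehicle (log2 fold change -0.09, edgeR adjusted p = 0.387).

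Several family genes had few or no counts. Bcl2a1a, Bcl2a1b and Bcl2a1d, which encode pro-survival A1 proteins induced in activated lymphocytes, had 0 counts in every library. Without TMM factors, this allows up to 0.0727 CPM over the RGFP966 libraries and 0.0630 CPM over the vehicle libraries (3 counts over each group). These 3 genes share 69.0%, 79.2% and 79.5% of their 50-base words with other genes, chiefly with each other. In addition, 49.1% of Bcl2a1b exonic length is overlapped, chiefly by Gm29094 on the same strand. The sources used here do not say how such reads were counted. Bok, a BAX-like effector, had 6 counts over the RGFP966 libraries and 3 over the vehicle libraries. Bik had 0 and 2, and Hrk, a BH3-only gene of neurons, had 3 and 1 in the same order, all removed by the filter.

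Downstream of mitochondria, 2 of 14 tested apoptosome and caspase genes fell and 0 rose by edgeR (14.3% called, against 23.3% of all genes). At an unadjusted p under 0.05, 3 were higher, and 0 were higher by DESeq2. Htra2, a mitochondrial protease released with cytochrome c, measured 46.8 ± 0.760 CPM with RGFP966 and 52.2 ± 0.741 CPM with vehicle (SD, n = 3; log2 fold change -0.16, edgeR adjusted p = 0.0464). It kept its call in 2 of 17 settings, and 43.7% of its exonic length is overlapped by other genes, Aup1 most. Apaf1, the scaffold of the apoptosome, had a log2 fold change of 0.10 (edgeR adjusted p = 0.111), Cycs, which encodes cytochrome c, -0.04 (edgeR adjusted p = 0.508), and Casp9, the initiator caspase gene, 0.06 (edgeR adjusted p = 0.677).

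Of 6 tested inhibitor of apoptosis genes 1 rose and 0 fell by edgeR (16.7% called, against 23.3% of all genes). At an unadjusted p under 0.05, 0 were lower, and 0 were lower by DESeq2. The 1 that rose, Naip2, encodes a sensor of bacterial proteins that carries the family's BIR repeats. It measured 40.5, 44.6 and 43.2 CPM with RGFP966, against 33.5, 32.6 and 31.3 CPM with vehicle (log2 fold change 0.40 ± 0.07 SE; edgeR adjusted p = 1.06e-05), and shares 19.1% of its 50-base words with other genes, Naip1 most. Xiap, the inhibitor that binds caspases directly, measured 109 ± 0.425 CPM with RGFP966 and 116 ± 3.16 CPM with vehicle (SD, n = 3; edgeR adjusted p = 0.175).

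In the death receptor pathway, which reaches the family through BID, 1 of 9 tested genes rose and 1 fell (22.2% called, against 23.3% of all genes). Tnfsf10, which encodes the death ligand TRAIL, measured 21.4, 19.1 and 21.9 CPM with RGFP966, against 13.3, 15.3 and 13.9 CPM with vehicle (log2 fold change 0.55 ± 0.10 SE; edgeR adjusted p = 1.88e-05). Cflar, which encodes FLIP, the decoy that blocks caspase-8, measured 26.3, 31.8 and 33.9 CPM with RGFP966, against 33.5, 37.8 and 36.4 CPM with vehicle. Its groups overlapped, and its log2 fold change of -0.23 (edgeR adjusted p = 0.0276) became -0.13 without RGFP966 library 1 (adjusted p = 0.305). Its call was also lost without vehicle library 2 (adjusted p = 0.119) or 3 (0.0908), with upper-quartile factors (0.0583) and in the DESeq2 Wald test (0.124), which called 0 genes of this list lower. Fas, the receptor gene, was at 7.01 ± 0.264 CPM with RGFP966 and 5.97 ± 1.21 CPM with vehicle (SD, n = 3; edgeR adjusted p = 0.311).

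Among 18 tested partners and kinases of BH3-only proteins, 3 rose and 4 fell (38.9% called, against 23.3% of all genes). Dynll2, which encodes the dynein light chain that tethers BMF, measured 154, 145 and 154 CPM with RGFP966, against 130, 124 and 133 CPM with vehicle (log2 fold change 0.23 ± 0.04 SE; edgeR adjusted p = 5.98e-05). Dynll1, which encodes the light chain known to bind BIM, had a log2 fold change of -0.10 that was not called (edgeR adjusted p = 0.113), and passed only with offsets for GC content and length (0.0447), with these and the replicate number as a block (0.0353), and without vehicle library 3 (0.0430). Akt1 and Pim1, genes of kinases that phosphorylate BAD, had log2 fold changes of -0.15 (edgeR adjusted p = 0.00284) and -0.47 (edgeR adjusted p = 0.00416), and the call of Pim1 was lost without vehicle library 3 (0.0600). Ppp3ca, a catalytic subunit gene of the phosphatase calcineurin, which acts on BAD, fell by 0.16 on the log2 scale (edgeR adjusted p = 8.67e-04). Ppp1ca, of protein phosphatase 1, rose by 0.29 (edgeR adjusted p = 0.00445), with groups that overlapped and an adjusted p of 0.0672 without RGFP966 library 2. Ywhaq, a gene of the 14-3-3 proteins that hold phosphorylated BAD, rose by 0.12 (edgeR adjusted p = 0.0175), but not without RGFP966 library 2 (0.139) or vehicle library 1 (0.158), and shares 28.9% of its words with other genes.

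Of the genes whose proteins are known to regulate transcription of the family, with the p53 targets Cdkn1a and Mdm2, 20 were tested, 6 rose and 3 fell. Of the 20, 45% were called, against 23.3% of all genes. Cdkn1a, the gene of the cell cycle inhibitor p21, measured 73.5, 71.2 and 73.2 CPM with RGFP966, against 58.3, 53.6 and 53.7 CPM with vehicle (log2 fold change 0.40 ± 0.05 SE; edgeR adjusted p = 1.20e-07). Runx1 rose by 0.35 (edgeR adjusted p = 7.33e-05) and Myc by 0.18 (edgeR adjusted p = 3.55e-04), while Stat5a fell by 0.27 (edgeR adjusted p = 2.18e-04), Nfkb1 by 0.16 (edgeR adjusted p = 0.00243) and the stress factor gene Ddit3 by 0.33 (edgeR adjusted p = 0.0140). The call of Ddit3 was lost without RGFP966 library 2 (adjusted p = 0.0772) or 3 (0.0926) or vehicle library 3 (0.0781), and in the DESeq2 Wald test (0.0782). Foxo3, whose protein activates Bcl2l11 and Bbc3 when growth factors are withdrawn, measured 127, 118 and 127 CPM with RGFP966, against 118, 107 and 116 CPM with vehicle. The groups overlapped and the log2 fold change of 0.12 ± 0.05 (SE; edgeR adjusted p = 0.0482) was not called in 7 of 17 settings, among them those without RGFP966 library 1 (0.196) or 3 (0.157) and vehicle library 2 (0.259). Trp53, which encodes p53, was not called, at 244 ± 6.46 CPM with RGFP966 and 259 ± 7.98 CPM with vehicle (SD, n = 3; edgeR adjusted p = 0.0954).

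Mitochondrial channel and membrane genes had 6 of 8 tested genes lower by edgeR (75%, against 11.9% of all genes) and 0 higher. At an unadjusted p under 0.05, 0 were higher, and by DESeq2 0 were higher and 5 lower. The edgeR call of Vdac3 lay closest to the threshold (edgeR adjusted p = 0.04996), with groups that overlapped. The median log2 fold change of the list was -0.14, beside -0.00 over all genes. Vdac2, the channel gene whose protein recruits BAK and BAX, measured 255, 266 and 255 CPM with RGFP966, against 297, 310 and 292 CPM with vehicle (log2 fold change -0.21 ± 0.04 SE; edgeR adjusted p = 2.85e-05). Ppif, which encodes cyclophilin D, fell by 0.24 (edgeR adjusted p = 0.00112) and Slc25a5, an adenine nucleotide carrier gene, by 0.14 (edgeR adjusted p = 0.00306). Other genes, Ppifos most, overlap 18.3% of Ppif exonic length, and 33.8% of Slc25a5 words are shared with other genes. Of 9 tested genes of MCL1 protein turnover, 0 were called by edgeR, against 23.3% of all genes. DESeq2 called 0 of them, and 1 was lower by edgeR at an unadjusted p under 0.05.

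**Figure D4:**
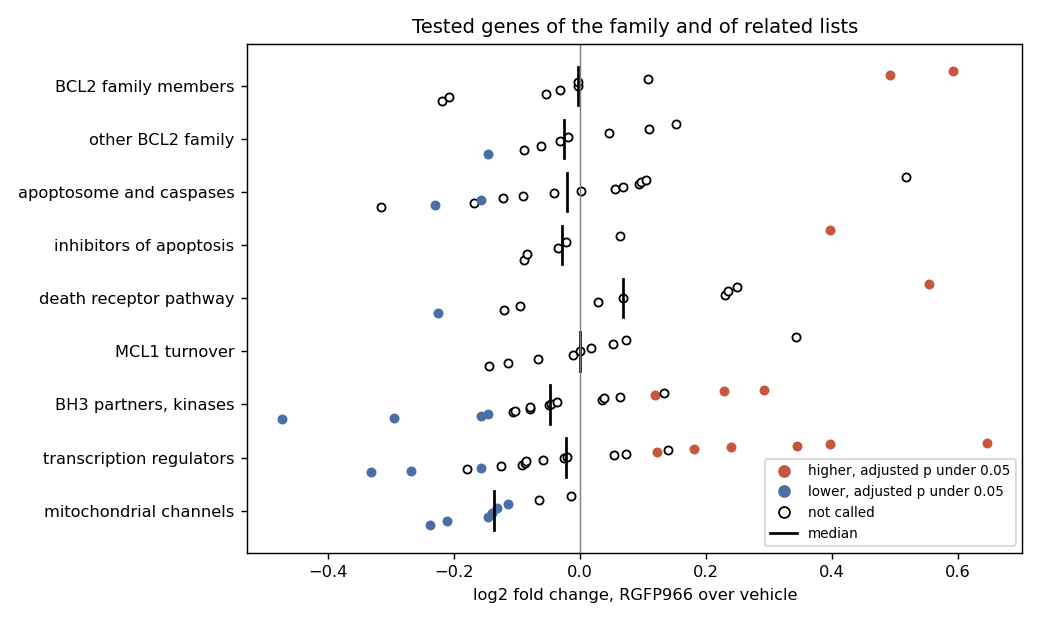
Log2 fold change (RGFP966 over vehicle) of every tested gene of the family and of 8 related lists, 1 point per gene, filled where the adjusted p was under 0.05, with a bar at each list's median. The members spread on both sides of a median at -0.00, and the mitochondrial channel list has its median at -0.14.

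Among the genes whose log2 CPM followed that of Bcl2l11 most closely over the 6 libraries were H2-D1 (Pearson r = 0.999) and Acsf2 (0.996). These points share the split into 2 groups, and 369 tested genes had an r above 0.95 with Bcl2l11.

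Library totals ran from 12935443 to 14768540 counts with RGFP966 and from 15380331 to 16451017 with vehicle. Hdac3, whose product the drug inhibits, was not called (log2 fold change -0.05; edgeR adjusted p = 0.482). Of 13 T-cell markers 12 stood at 1 CPM or more, with summed levels of 2917 to 2983 CPM with RGFP966 and 2822 to 2844 CPM with vehicle. By edgeR, 4 of the 12 tested were higher (Trbc2, Cd5, Cd2 and Ptprc) and 3 lower (Cd247, Lat and Zap70). Over all tested genes these shares were 11.4% and 11.9%. The submitters' extraction text speaks of retinas, but 2 of 15 retina markers reached 1 CPM, and the list summed to 5.21 to 5.69 CPM with RGFP966 and 4.83 to 5.43 CPM with vehicle, with 5 at 0, among them Crx and Gnat1. Of 8 B-cell markers 2 reached 1 CPM (Pax5 and Ighm, which was lower), with sums of 496 to 504 CPM with RGFP966 and 531 to 554 CPM with vehicle and 2 at 0, among them Ms4a1. Of 7 fibroblast markers 1 reached 1 CPM (Pdgfra, which was higher), with sums of 54.7 to 57.3 CPM with RGFP966 and 44.2 to 45.4 CPM with vehicle and Col3a1 and Pdgfrb at 0. The part of these shifts in the results above was not tested. Of 10 myeloid markers 3 reached 1 CPM, with sums of 12.4 to 12.9 CPM with RGFP966 and 12.2 to 13.7 CPM with vehicle and 4 at 0, among them Adgre1 and S100a8. Of 7 erythroid markers 1 reached 1 CPM in any group, with sums of 1.16 to 1.87 CPM with RGFP966 and 0.847 to 1.53 CPM with vehicle. In bulk libraries, fewer cells of a type and less RNA per cell cannot be told apart, and neither cell death nor BCL2 family protein was measured.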

How the data were processed

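Raw counts per gene were used as deposited, in whole numbers. The submitters' processing notes name CASAVA, Bowtie2 2.2.3, HISAT2 2.1.0, TopHat2, HTSeq 0.6.0 and build mm10, with no role or order, and the sources used here do not state the annotation release or strandedness. Of 51912 IDs, 99.5% matched GENCODE M21 (GRCm38), which gave symbols, positions and exonic lengths. Counts were filtered with filterByExpr, scaled by TMM and tested with edgeR 4.0.16 (R 4.3.3; robust quasi-likelihood F test) over 13484 genes in all 6 libraries, with Benjamini-Hochberg adjustment at 0.05 and no covariate; the fit was tested on simulated data. Standard errors derive from F. Alternatives used DESeq2 1.42.0, limma 3.58.1 and other scalings, filters and subsets. Library totals were 12935443 to 16451017 counts; the exact Poisson intervals cover counting error only, since duplicate reads are not known, while the intervals of fold changes come from the edgeR fit and include the spread between libraries. Replicates of a group differed by more than sampling noise (chi-square per degree of freedom 2.15 to 3.33). Members and lists were chosen with earlier results of these data known. Named were all members, up to 3 called genes of smallest adjusted p per direction in each related list, a set of core pathway genes whatever their result, and the 3 genes most like Bcl2l11 over the 6 libraries. Bcl2a1a, Vdac3, the overlapping genes and the markers were named outside this rule, after their values were seen. Some genes that the rule names are not reported here.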

Additional observations from a re-analysis of the deposited data

How the results depend on the processing

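Bcl2l11 and Bmf were called higher in all 17 alternative settings, at log2 fold changes of 0.45 to 0.56 and 0.53 to 0.66 and adjusted p up to 0.00155 and 0.0180. Leaving out a library gave 1238 to 1385 genes higher and 1116 to 1484 lower, against 1543 and 1602, with 2 members higher and 0 lower each time. The DESeq2 Wald test called 1011 genes higher. Upper-quartile scaling called 1838 higher and 1270 lower, so that 59.1% of calls were higher, against 49.1%. Among the tested members, signs turned only for genes never called. Bax became 0.014 with offsets for GC content and length, and 0.01528 with these and the replicate block. Bcl2 became 1.225e-05 with DESeq2 size factors, 0.01964 with upper-quartile factors, 0.0108 with total counts, 0.01128 with the 5 CPM minimum, 0.0189 with thinned counts, and between -0.0169 and 0.01987 without a library. Mcl1 became 0.0001973, 0.01966, 0.01067, 0.01131 and 0.009253 in the same settings, and between -0.0188 and 0.01055 without a library. Bcl2l1 became 0.004559 with the offsets, 0.001283 with these and the block, and between -0.120 and 0.06018 without a library. The cause was not tested. Deviations from the group mean correlated at -0.0151, 0.0471 and -0.0124 between same-numbered libraries, and at -0.0335 to 0.0464 between other pairs. With 3 libraries a group, these values cannot decide whether the numbers pair the libraries. The replicate block called 1667 genes higher and 1764 lower, with 2 members higher and 0 lower. The filter on low counts removed Pmaip1, at 4 to 8 counts a library, from the main test.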
